A study of Homo sapiens with 8 samples.

Results

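Transcripts of 9 genes that move lymphocytes and hold them to other cells were compared in Jurkat cells labelled as having or lacking CBAP. They encode the chemokine receptors CXCR4, CCR7 and CCR9, the integrin alpha subunits ITGA4, ITGA5 and ITGAL, and the integrin beta subunits ITGB1, ITGB2 and ITGB7. They were taken by symbol from the 13453 genes of the expression table, and all 9 were found. Of these, 8 passed the filter on low values and were tested, and CCR7 did not. Jurkat is an established human T-cell acute lymphoblastic leukemia (T-ALL) line, and CBAP, encoded by TMEM102, has been linked to chemokine-driven migration and to beta-1 integrin signaling of T cells. RNA was sequenced from 8 libraries, 2 of each of 4 kinds of Jurkat cells. The shRNA set held sh-Ctrl cells, which carried a non-targeting shRNA, and CBAP knockdown cells, which carried an shRNA against CBAP, both kept as puromycin-selected stable lines. The CRISPR set held CBAP knockout cells expressing GFP and CBAP-reconstituted cells, which are knockout cells expressing CBAP fused to GFP. The knockout lines of the study were grown from single sorted cells, so all CRISPR-set libraries share a knockout background, and what belongs to a clone or a stable line cannot be told apart from what belongs to CBAP. By their labels the sh-Ctrl and CBAP-reconstituted libraries are CBAP-expressing and the other 4 CBAP-deficient. These names stand here for the labels only, since TMEM102 was listed at 0 in both CRISPR-set conditions. That listing gives no RNA support for the label CBAP-reconstituted. The study checked protein by immunoblot in its knockout clones and in those given GFP or CBAP-GFP.

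Chemokine receptors are G protein-coupled receptors that sense gradients of small secreted proteins and signal through Gi proteins to Rac and Rap GTPases. In lymphocytes this signal switches integrins, which are pairs of an alpha and a beta chain, from a folded to an extended form within moments, the step called inside-out activation. T-ALL cells use CXCR4 to lodge in the marrow and CCR7 to enter the central nervous system, while alpha-4 and alpha-L integrins bind the vessel wall and other cells.

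Promoter sequence is shown for CXCR4, the most abundant member, and for ITGA5, an alpha subunit that was higher in CBAP-deficient cells of both sets, because the RefSeq promoter table held for both a window of 250 bases before a transcription start that touches no annotated exon. Both genes lie on the minus strand. The CXCR4 window is chr2:136875720-136875969 and the ITGA5 window chr12:54813051-54813300 of GRCh37, each placed by an exact match of the RefSeq sequence (GRCh38.p14) to that genome. Capitals mark matches, on either strand, to the TATA box letters TATAAA or the GC box letters GGGCGG.
CXCR4: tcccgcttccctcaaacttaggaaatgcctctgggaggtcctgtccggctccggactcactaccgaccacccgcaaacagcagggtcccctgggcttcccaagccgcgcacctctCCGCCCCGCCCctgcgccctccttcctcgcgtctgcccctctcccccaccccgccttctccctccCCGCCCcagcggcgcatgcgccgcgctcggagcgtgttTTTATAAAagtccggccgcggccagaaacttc
ITGA5: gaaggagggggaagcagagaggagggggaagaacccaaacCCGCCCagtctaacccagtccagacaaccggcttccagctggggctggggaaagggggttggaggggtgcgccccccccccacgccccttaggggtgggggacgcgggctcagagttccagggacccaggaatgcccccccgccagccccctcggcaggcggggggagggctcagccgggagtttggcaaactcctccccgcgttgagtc
The CXCR4 window held a TATA match on both strands, 32 and 30 bases before the start, and GC boxes at 135, 130 and 70 bases, the first pair of which share a base. The ITGA5 window held a single GC box 210 bases before the start and no TATA match. Over 35116 RefSeq windows of the same length, 10.7% held TATAAA and 42.6% held GGGCGG. The letters CGGAAG (ETS), TGTGGT (RUNX) and TGAGTCA (AP-1) were also searched and were not in either window, against 16.5%, 11% and 4.2% of all windows. No entry was found for CCR7, ITGAL or ITGB2.

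All 9 are protein-coding genes. On GRCh37 the plus-strand ones are ITGA4 (chr2:182321929-182403667), CCR9 (chr3:45925917-45944666) and ITGAL (chr16:30483979-30534888). On the minus strand are CXCR4 (chr2:136871919-136876747), ITGB1 (chr10:33176201-33294720), ITGB7 (chr12:53585107-53601066), ITGA5 (chr12:54789045-54813050), CCR7 (chr17:38710021-38721724) and ITGB2 (chr21:46305868-46351904). Exons of ITGB1, ITGB7 and ITGA5 overlap those of ITGB1-DT, ZNF740 and GPR84-AS1 on the other strand, and 2 unnamed antisense RNAs overlap those of ITGAL, so their reads may be shared where strand was not used. ITGB1 also has a processed pseudogene, ITGB1P1, on chromosome 19.

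Expression was given as FPKM, fragments scaled to exon length and to the number mapped, so levels of different genes can be set side by side, but the depth behind a value is unknown. In bulk cultures, fewer cells expressing a gene and less RNA per cell cannot be told apart. The targeted gene TMEM102 had 4.07 and 4.74 FPKM in sh-Ctrl and 2.69 and 2.89 in CBAP knockdown libraries, and it was listed at 0 in all 4 CRISPR-set libraries. The label CBAP-reconstituted could therefore not be checked on the targeted gene, and these are called the libraries labelled CBAP-reconstituted. Of 21 T-lineage markers in the table, 11 had at least 5 FPKM in every library, CD3D, CD3E and LCK among them, and TRAC and TRBC2 were listed at 0 throughout. The summed T-lineage markers came to 2055 and 2063 in sh-Ctrl, 1938 and 2152 in CBAP knockdown, 1780 and 1782 in the libraries labelled CBAP-reconstituted, and 2404 and 2881 in CBAP knockout. In the libraries labelled CBAP-reconstituted, 6 of the 21 were below all other libraries: CD2, CD5, CD7, CD28, CD247 and TCF7. The recombinase genes RAG1 (31.5 and 31.1 FPKM against 1.05 to 22.1) and RAG2 (27.5 and 29.7 against 1.04 to 18.6) were above all other libraries. The scavenger-receptor protein CD5 had 0.180 and 0.231 FPKM there and between 19.7 and 27.4 elsewhere. Of 28 markers of other cell types 9 were in the table, and their sum was 12.0 and 14.2 in those libraries against 22.5 to 35.0 in the other 6. The B-cell receptor chain CD79A (0.732 and 1.09 against 9.60 to 22.5) and PECAM1 were lowest there, whereas 5 of the 9 were highest there: EBF1, CD68, NCAM1, the epithelial keratin KRT18 (1.61 and 2.50 against 0.00 to 0.374) and COL1A1 (2.13 and 2.15 against 1.07 to 1.51).

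CXCR4, the receptor for CXCL12, was by far the most abundant of the 9 genes. It had 251 and 184 FPKM in sh-Ctrl, 144 and 218 in CBAP knockdown, 162 and 163 in the libraries labelled CBAP-reconstituted, and 350.1 and 354 in CBAP knockout. The knockout libraries stood above all others, whereas the sh-Ctrl, knockdown and reconstituted values ran into each other. Within the CRISPR set the mean was 2.17-fold higher in knockout cells, a change of 1.11 in log2(FPKM + 1) (standard error 0.22, limma adjusted p = 0.00908). Within the shRNA set CXCR4 changed by -0.28 (standard error 0.22, adjusted p = 0.445), and the 2 groups overlapped. With 1 library of the shRNA set left out, that value ran from -0.57 (without knockdown replicate 2) to 0.02 (without knockdown replicate 1). The CRISPR-set call ended without the first or the second library labelled CBAP-reconstituted (adjusted p = 0.0541 and 0.0529).

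CCR7, which guides cells to lymph nodes along CCL19 and CCL21, was near the bottom of the range. It had 0.406 and 0.984 FPKM in sh-Ctrl, 1.46 and 1.08 in CBAP knockdown, 0.224 and 0.254 in the libraries labelled CBAP-reconstituted, and 1.29 and 1.25 in CBAP knockout. All 4 CBAP-deficient libraries were above all 4 CBAP-expressing ones. With a mean of 0.869 FPKM it missed the filter of 1. In a fit without the filter its change was 0.87 in the CRISPR set (standard error 0.17, adjusted p = 0.00976) and 0.44 in the shRNA set (standard error 0.17, adjusted p = 0.168).

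CCR9, the receptor for the thymic and gut chemokine CCL25, differed mainly between the sets. It had 0.596 and 0.491 FPKM in sh-Ctrl and 0.290 and 0.948 in CBAP knockdown, against 5.01 and 5.53 in the libraries labelled CBAP-reconstituted and 3.94 and 3.95 in CBAP knockout. Every CRISPR-set library was above every shRNA-set library, and within the CRISPR set the knockout values were the lower pair. Neither within-set change passed the test: knockdown gave 0.04 (standard error 0.20, adjusted p = 0.925) and knockout -0.34 (standard error 0.20, adjusted p = 0.199). The shRNA-set value ran from -0.26 (without knockdown replicate 2) to 0.34 (without knockdown replicate 1). The CRISPR-set change passed without the first or the second CBAP knockdown library (adjusted p = 0.0169 and 0.0175), whose values set part of the spread that the fit shares between conditions. Exons of the gene LZTFL1 overlap those of CCR9 on the other strand. LZTFL1 was listed at 0 in both libraries labelled CBAP-reconstituted and had 54.4 and 56.4 FPKM in knockout cells, and its part in the CCR9 values was not tested.

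**Figure D1:**
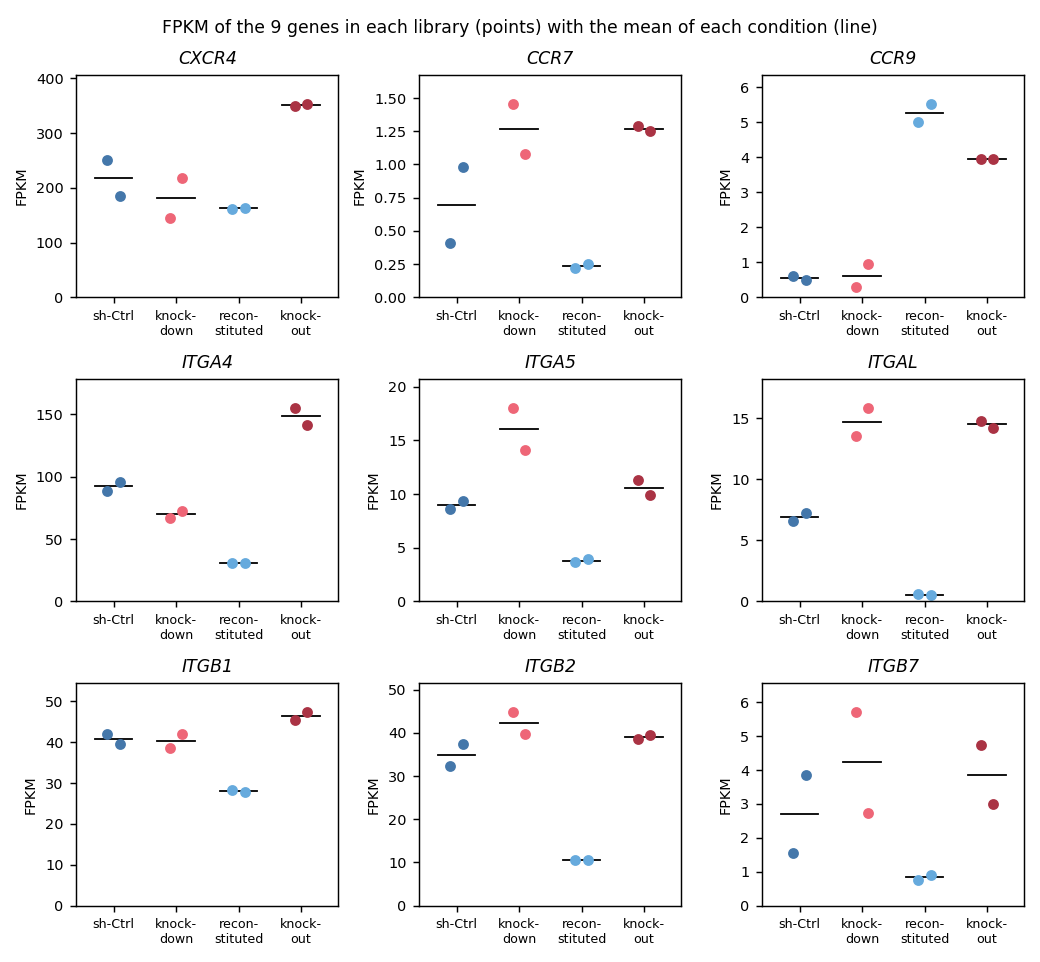
FPKM of each of the 9 genes (vertical axes, linear and from 0) in the 2 libraries of each condition (points), with the condition mean as a line. The libraries labelled CBAP-reconstituted were lowest for 7 genes, while CXCR4 and ITGA4 peaked in the knockout libraries and CCR9 was high in both CRISPR-set conditions.

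ITGA4, the alpha-4 chain that pairs with beta-1 to bind VCAM-1 and fibronectin or with beta-7 to bind MAdCAM-1, moved in opposite directions in the sets. It had 88.3 and 96.0 FPKM in sh-Ctrl and 67.2 and 72.3 in CBAP knockdown. It had 30.7 and 30.8 in the libraries labelled CBAP-reconstituted and 155 and 142 in CBAP knockout. No conditions overlapped, and the order ran from knockout through sh-Ctrl and knockdown down to reconstituted. The mean was 4.83-fold higher in knockout cells (log2 change 2.23, standard error 0.072, adjusted p = 1.94e-05) and 1.32-fold lower in knockdown cells (log2 change -0.40, standard error 0.072, adjusted p = 0.0269). The difference between the changes was -2.63 (standard error 0.10, adjusted p = 6.22e-05). Exons of CERKL overlap those of ITGA4 on the other strand, and CERKL was listed at 0 in the shRNA set. CERKL had 1.74 and 1.88 FPKM in the libraries labelled CBAP-reconstituted and 8.08 and 8.39 in knockout cells. Its part in the ITGA4 values was not tested.

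ITGA5, which forms the classical fibronectin receptor with beta-1, was higher in CBAP-deficient cells of both sets. It had 8.64 and 9.40 FPKM in sh-Ctrl and 18.0 and 14.1 in CBAP knockdown. In the CRISPR set it had 3.65 and 3.98 in the libraries labelled CBAP-reconstituted and 11.3 and 9.89 in CBAP knockout. All 4 deficient libraries were above all 4 expressing ones. The mean was 1.78-fold higher in knockdown cells (log2 change 0.76, standard error 0.13, adjusted p = 0.0235) and 2.78-fold higher in knockout cells (log2 change 1.27, standard error 0.13, adjusted p = 0.000921). A difference between these changes was not shown (-0.51, standard error 0.19, adjusted p = 0.087), although it passed without the first knockdown library (-0.68, adjusted p = 0.0201).

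ITGAL, the alpha-L chain of the ICAM-binding integrin LFA-1, had the widest range of the 9 genes. It had 6.58 and 7.25 FPKM in sh-Ctrl and 13.5 and 15.9 in CBAP knockdown. It had 0.602 and 0.538 in the libraries labelled CBAP-reconstituted and 14.8 and 14.2 in CBAP knockout. The knockdown and knockout values overlapped, and the CBAP-expressing conditions lay below them and far apart. The mean was 2.13-fold higher in knockdown cells (log2 change 0.98, standard error 0.095, adjusted p = 0.00574) and 25.5-fold higher in knockout cells (log2 change 3.30, standard error 0.095, adjusted p = 1.26e-05). The changes differed by -2.32 (standard error 0.13, adjusted p = 0.000262).

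ITGB1, the beta-1 chain shared by the alpha-4 and alpha-5 receptors, had the narrowest range. It had 42.1 and 39.6 FPKM in sh-Ctrl, 38.6 and 41.9 in CBAP knockdown, 28.4 and 27.8 in the libraries labelled CBAP-reconstituted, and 45.4 and 47.4 in CBAP knockout. The shRNA-set groups overlapped (log2 change -0.02, standard error 0.063, adjusted p = 0.860). In the CRISPR set the mean was 1.65-fold higher in knockout cells (log2 change 0.70, standard error 0.063, adjusted p = 0.000566).

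ITGB2, the beta-2 chain that pairs with alpha-L, had 32.3 and 37.4 FPKM in sh-Ctrl, 44.8 and 39.8 in CBAP knockdown, 10.6 and 10.7 in the libraries labelled CBAP-reconstituted, and 38.6 and 39.5 in CBAP knockout. All 4 deficient libraries were above all 4 expressing ones, by a margin in which sh-Ctrl came close. The mean was 3.68-fold higher in knockout cells (log2 change 1.79, standard error 0.090, adjusted p = 8.14e-05). The shRNA-set change of 0.27 did not pass (standard error 0.090, adjusted p = 0.108). The antisense gene ITGB2-AS1 overlaps its exons, and the strand of counting is not given in the sources used here. ITGB2-AS1 had between 0.0516 and 2.50 FPKM, lowest in the libraries labelled CBAP-reconstituted and highest in knockout cells.

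ITGB7, the partner of alpha-4 in gut homing, was the scarcest and most variable beta chain. It had 1.55 and 3.85 FPKM in sh-Ctrl, 5.71 and 2.75 in CBAP knockdown, 0.767 and 0.918 in the libraries labelled CBAP-reconstituted, and 4.74 and 2.99 in CBAP knockout. The sh-Ctrl, knockdown and knockout values overlapped and stood above the reconstituted pair. The CRISPR-set change was 1.38 (standard error 0.41, adjusted p = 0.0356) and the shRNA-set change 0.51 (standard error 0.41, adjusted p = 0.448). Leaving out 1 library of the shRNA set moved the latter to between 0.05 (first sh-Ctrl library left out) and 0.98 (second one left out). The CRISPR-set call ended without the first or second library labelled CBAP-reconstituted (adjusted p = 0.142 and 0.118) and without the first or second knockout library (0.144 and 0.0596).

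In the shRNA set, 3 of the 8 tested genes passed: ITGA5 and ITGAL were higher and ITGA4 lower in CBAP knockdown cells. Over all genes tested, 12.3% passed in either direction and 3.62% were higher. The median change of the 8 genes was 0.16, against -0.06 over all genes. Of the 1408 genes that passed, 29.4% were higher, a share that became 50.4% with quantile normalization and 47.6% with median-ratio scaling, and under both the calls of the members were the same 3 genes. The calls rested on a spread estimated over both sets. With the 4 shRNA-set libraries fitted alone 0 members passed and 3 had an unadjusted p under 0.05, and the adjusted p was 0.191 for ITGA4, 0.186 for ITGA5 and 0.129 for ITGAL. ITGA4 lost its call without sh-Ctrl replicate 2 (adjusted p = 0.0767) or without either library labelled CBAP-reconstituted (0.0814 and 0.0812), and ITGA5 without sh-Ctrl replicate 1 or 2 (0.086 and 0.0621) or either library labelled CBAP-reconstituted (0.0726 and 0.0728).

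In the CRISPR set, 7 of the 8 tested genes were higher in CBAP knockout cells than in the libraries labelled CBAP-reconstituted, and CCR9 did not pass. Over all genes tested, 49.9% passed in either direction and 23.9% were higher. The median change of the 8 genes was 1.32, against 0.00 over all genes. The libraries labelled CBAP-reconstituted were below all other 6 for 7 of the 9 genes, and for 6 of the 8 tested ones against 10.2% of all tested genes. Of the markers named above, CD5, CD28 and others were low and RAG1, RAG2, KRT18 and others high in the same libraries, and their part in these changes was not tested.

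Since the label could not be checked, sh-Ctrl was also set in place of the libraries labelled CBAP-reconstituted, an alternative chosen after seeing the data, in which the set and the loss of CBAP cannot be told apart. Against sh-Ctrl, 4 of 8 genes were higher in knockout cells: CXCR4 (log2 change 0.71, adjusted p = 0.0406), CCR9 (1.68, adjusted p = 0.00148), ITGA4 (0.68, adjusted p = 0.00112) and ITGAL (0.97, adjusted p = 0.00086). ITGA5 (0.21), ITGB1 (0.18), ITGB2 (0.16) and ITGB7 (0.44) did not pass, where the median change over all genes was 0.14. Over all genes 51.7% passed in this comparison in either direction, close to the members' share, and 3809 of 11427 were higher. Pooled deficient libraries against sh-Ctrl gave 0 of 8 calls by limma, with 1 unadjusted p under 0.05, where 0.35% of all genes passed. The ITGAL change against sh-Ctrl was thus 0.97 in knockout and 0.98 in knockdown cells, with the same sh-Ctrl libraries in both.

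The CBAP-expressing conditions themselves differed at most of the genes. Between the libraries labelled CBAP-reconstituted and sh-Ctrl, 6 of the 8 tested genes passed, against 39.4% of all genes. Lower in the former were 5 of them, against 10.7% of all genes: ITGAL (-2.33, adjusted p = 4.53e-05), ITGB2 (-1.62, adjusted p = 0.000159), ITGA4 (-1.55, adjusted p = 7.63e-05), ITGA5 (-1.06, adjusted p = 0.00299) and ITGB1 (-0.52, adjusted p = 0.00271). CCR9 was higher (2.02, adjusted p = 0.00129). The median change over all genes was 0.17 in this comparison.

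For CXCR4, ITGA4, ITGAL, ITGB1 and ITGB2, that is for 5 of 8, the knockdown and the knockout change were not of equal size, which held for 33.8% of all genes. In each of them the shRNA-set change was the more negative or the smaller: the difference was -1.39 for CXCR4 (adjusted p = 0.0216), -0.72 for ITGB1 (adjusted p = 0.00335) and -1.51 for ITGB2 (adjusted p = 0.000965). The CXCR4 difference no longer passed without sh-Ctrl replicate 1 (adjusted p = 0.0571), either library labelled CBAP-reconstituted (0.0807 and 0.0794) or either knockout library (0.0597 and 0.0617).

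**Figure D2:**
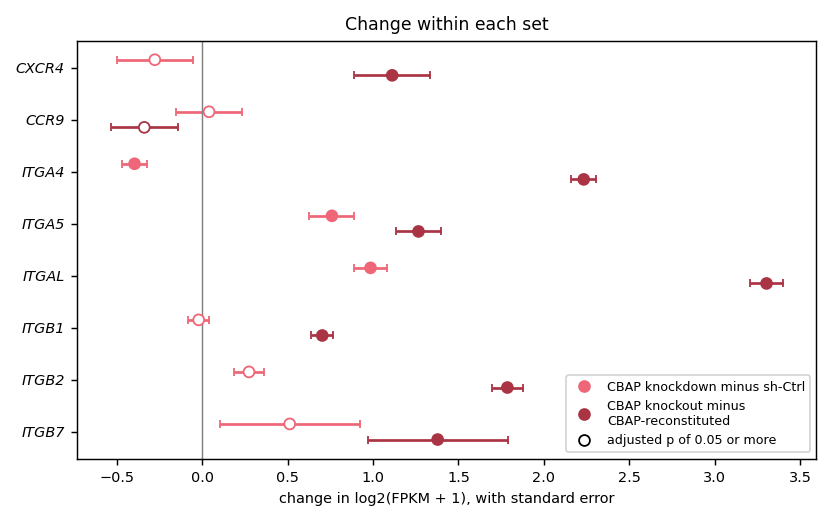
Change in log2(FPKM + 1) of the 8 tested genes within each set (points), with its standard error (bars). Filled points passed an adjusted p under 0.05, which 3 genes did after knockdown and 7 after knockout, and ITGA4 lay on opposite sides of 0.

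With all 8 libraries pooled by CBAP as labelled, limma called 0 of the 8 genes, with the lowest adjusted p at 0.117 for ITGAL, and 4 had an unadjusted p under 0.05. Over all genes 0.621% passed. ITGAL averaged 14.6 FPKM in deficient and 3.74 in expressing libraries. The deficient libraries were all above the expressing ones for 4 of the 9 genes, CCR7, ITGA5, ITGAL and ITGB2, of which the 3 tested ones compare with 4.67% of all tested genes. With the set as a covariate, ITGA5 (log2 change 1.01, adjusted p = 0.0116) and ITGAL (2.14, adjusted p = 0.033) passed, which is 2 of 8, and 12.3% of all genes passed in that fit. It takes 1 change for both sets, although the ITGAL changes differed between them (-2.32, limma adjusted p = 0.000262). ITGA5 and ITGAL were also the 2 of 8 genes called higher in the deficient cells of both sets, against 1.72% of all genes. That call uses the same 8 libraries, so it adds no separate support.

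Alpha-4 can pair with beta-1 or beta-7 and alpha-L pairs with beta-2, so each beta chain was also taken as a share of the summed FPKM of ITGB1, ITGB2 and ITGB7. ITGB1 made up 55.4% and 49.0% of it in sh-Ctrl, 43.3% and 49.6% in CBAP knockdown, 71.5% and 70.6% in the libraries labelled CBAP-reconstituted, and 51.1% and 52.7% in CBAP knockout. ITGB2 took most of the rest, with 42.5% and 46.3%, 50.3% and 47.1%, 26.6% and 27.0%, and 43.5% and 43.97% in the same order. The libraries labelled CBAP-reconstituted stood apart, and the other conditions lay close together. ITGB1 averaged 49.2% ± 4.13 (SD, n = 4) in deficient and 61.6% ± 11.2 (SD, n = 4) in expressing libraries, a difference of -12.4 percentage points (two-sided exact permutation test, p = 0.114, adjusted over the 3 shares 0.171). ITGB2 differed by 10.6 points (exact permutation p = 0.114, adjusted 0.171) and ITGB7, which averaged 4.58% and 2.77%, by 1.82 points (exact permutation p = 0.171, adjusted 0.171). The smallest p that 70 assignments of the libraries allow is 0.0286. Each class of 4 holds 2 libraries from each of 2 kinds of cells, so its SD includes the gap between those kinds. The permutation takes all 8 libraries as independent, which those of the same kind may not be. Without sh-Ctrl replicate 2 the ITGB1 and ITGB2 differences were -16.6 and 14.2 points, the largest with any library left out.

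**Figure D3:**
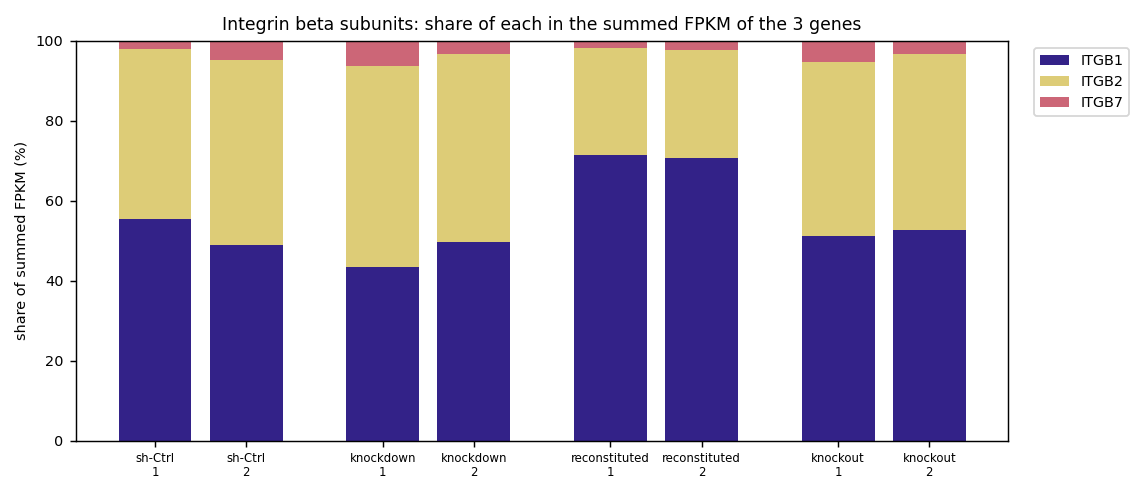
Share of ITGB1, ITGB2 and ITGB7 in their summed FPKM (percent, stacked to 100) in each of the 8 libraries. ITGB1 took over 70% in the libraries labelled CBAP-reconstituted and between 43.3% and 55.4% elsewhere.

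Among the alpha chains ITGA4 dominated in every library, but less so after knockdown. It made up 85.3% and 85.2% of the summed FPKM of ITGA4, ITGA5 and ITGAL in sh-Ctrl, 87.8% and 87.2% in the libraries labelled CBAP-reconstituted, 85.6% and 85.4% in CBAP knockout, and 68.0% and 70.7% in CBAP knockdown. The ratio of ITGA4 to ITGA5 was 10.2 in both sh-Ctrl libraries, 3.72 and 5.13 in knockdown, 8.42 and 7.73 in the libraries labelled CBAP-reconstituted, and 13.7 and 14.3 in knockout. The LFA-1 chains did not scale together, with an ITGB2 to ITGAL ratio of 4.91 and 5.16 in sh-Ctrl, 3.31 and 2.51 in knockdown, 17.6 and 19.8 in the libraries labelled CBAP-reconstituted, and 2.61 and 2.78 in knockout.

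Other chemokine and related chemoattractant receptors moved in both directions. Of 28 symbols sought 11 were in the table and 5 were tested. In the shRNA set 2 were higher and 0 lower, against 12.3% of all genes called, and in the CRISPR set 2 were higher and 1 lower, against 49.9%. S1PR1, the sphingosine-1-phosphate receptor that draws lymphocytes out of lymph nodes, had 2.67 and 5.77 FPKM in sh-Ctrl and 25.6 and 14.6 in CBAP knockdown (log2 change 2.03, adjusted p = 0.0243). CCR4, the receptor for CCL17 and CCL22, was higher after knockdown (1.40, adjusted p = 0.0187) and lower after knockout (-1.37, adjusted p = 0.00404). It had 2.67 and 2.95 FPKM in sh-Ctrl, 11.6 and 7.01 in knockdown, 12.4 and 11.5 in the libraries labelled CBAP-reconstituted, and 4.39 and 3.66 in knockout. CXCR3 (1.72, adjusted p = 0.0163) and CXCR7, an atypical CXCL12 receptor (1.25, adjusted p = 0.000496), were higher in knockout cells. Their levels in the libraries labelled CBAP-reconstituted were low, at 0.246 and 0.155 FPKM for CXCR3 and 0.143 and 0.139 for CXCR7.

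Of the other integrin subunits 8 of 20 were in the table and 5 were tested. ITGA6, a laminin-binding chain, was the 1 called in the shRNA set, where it rose from 6.16 and 4.25 to 10.1 and 11.7 FPKM (log2 change 0.96, adjusted p = 0.0203). ITGB3 (1.10, adjusted p = 0.000428) and its partner ITGAV (0.27, adjusted p = 0.0397) were the 2 called in the CRISPR set, both higher in knockout cells. That is 20% called after knockdown, against 12.3% of all genes, and 40% after knockout, against 49.9%. The median change of the 5 was 0.19 after knockdown and 0.26 after knockout, against -0.06 and 0.00 over all genes.

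Of 25 other adhesion receptors tested, 6 were higher and 2 lower in knockdown cells, and 10 were higher and 5 lower in knockout cells, with median changes of 0.17 and 0.10. That is 32.0% called after knockdown, against 12.3% of all genes, and 60.0% after knockout, against 49.9%. Called higher in both sets were 4, or 16.0%, against 1.72% of all genes. CD96, a receptor for nectin-like ligands, had 6.46 and 6.78 FPKM in sh-Ctrl, 16.5 and 19.2 in knockdown, 4.32 and 4.52 in the libraries labelled CBAP-reconstituted, and 26.1 and 27.3 in knockout (log2 changes 1.30 and 2.35, adjusted p = 0.00142 and 2.61e-05). The CD58 receptor CD2, which is also a T-lineage marker, changed in the same directions (0.95 and 2.80, adjusted p = 0.00895 and 3.47e-05). MCAM, an adhesion molecule of the immunoglobulin family, was higher in knockdown cells (0.83, adjusted p = 0.0163), and its change differed between the sets (0.88, adjusted p = 0.0139). CD6, the receptor for ALCAM, was higher in knockout cells (2.88, adjusted p = 0.000198), with 2.96 and 3.51 FPKM in the libraries labelled CBAP-reconstituted and 15.1 to 34.0 elsewhere.

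Of 78 tested genes linked to signals from chemokines to integrins, 9 were higher and 9 lower in knockdown cells. In knockout cells 22 were higher and 12 lower. Some of the 78, such as RGS2, damp signals, so these counts give no direction of signaling. The share called was 23.1% after knockdown, against 12.3% of all genes, and 43.6% after knockout, against 49.9%. Their median changes of 0.06 and 0.09 were near those of all genes. PARVG, gamma-parvin of the integrin-linked kinase complex, rose in both sets (0.95 and 3.33, adjusted p = 0.0207 and 6.21e-05). SKAP1, an adaptor that couples the T-cell receptor to LFA-1, had 0.226 and 0.527 FPKM in the libraries labelled CBAP-reconstituted and 16.0 and 16.1 in knockout cells (3.64, adjusted p = 1.95e-05). GRK5, a kinase of activated G protein-coupled receptors, was higher in knockout cells (2.25, adjusted p = 1.58e-05). RGS2, which damps G protein signals, was lower in knockdown cells (-0.85, adjusted p = 0.0209) and in knockout cells (-0.69, adjusted p = 0.00959).

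Of the chemokine and adhesion ligands 6 of 27 were in the table and 4 were tested. After knockdown limma called 0 of them, with an unadjusted p under 0.05 for 1. After knockout 1 was higher and 3 were lower, where 49.9% of all genes were called and 23.9% were higher. The LFA-1 ligand ICAM3 had 44.3 and 43.1 FPKM in the libraries labelled CBAP-reconstituted and 16.4 and 15.8 in knockout cells (-1.39, adjusted p = 0.000803). The ligand called higher was ICAM2, also bound by LFA-1 (0.50, adjusted p = 0.0384). CXCL16 (-0.80, adjusted p = 0.017) and MIF, a cytokine that also binds CXCR4 (-0.66, adjusted p = 0.000872), were also lower in knockout cells.

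**Figure D4:**
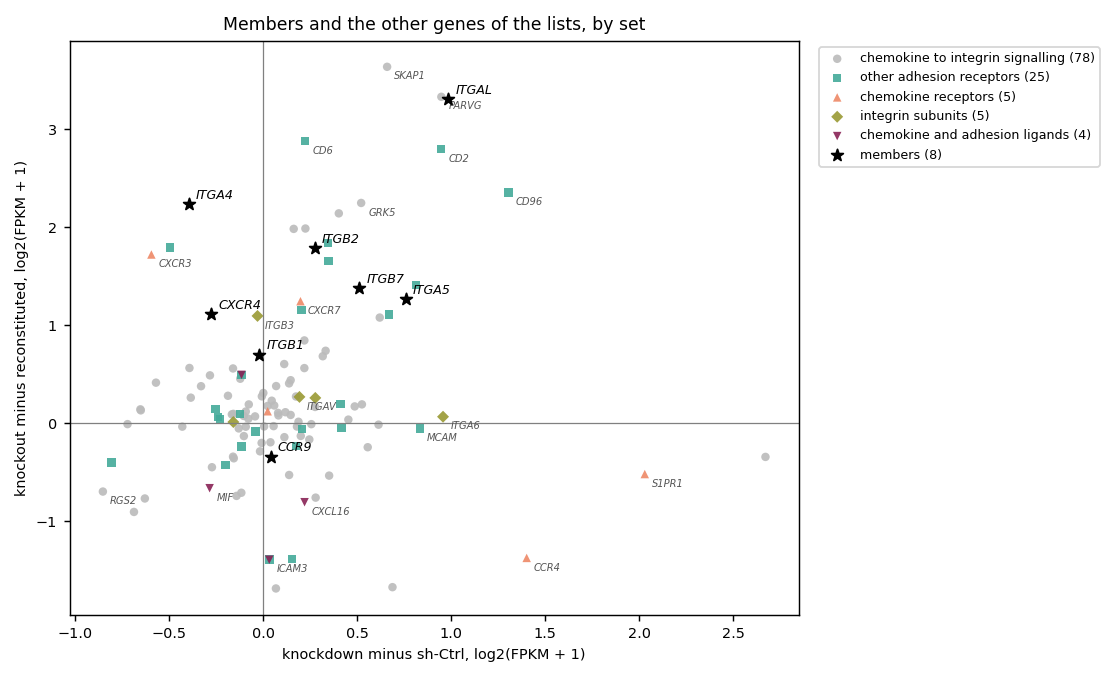
Change in log2(FPKM + 1) in the shRNA set (horizontal) and the CRISPR set (vertical) of the 8 tested members (stars) and the tested genes of 5 lists (other symbols, numbers in the key), where a gene of 2 lists is drawn once for each. PARVG and SKAP1 lay near ITGAL, and CCR4 lay opposite to ITGA4 in both sets.

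The genes closest to a member were sought for the 3 members with the widest range of condition means, among 10541 tested genes above 0 in all libraries, by the largest difference over the 8 libraries after each gene was centered on its own mean. For ITGAL, whose range was 3.32 in log2(FPKM + 1), the closest was PARVG, which nowhere departed by more than 0.28, and then SKAP1 (0.40) and the calcium channel TRPM2 (0.42). TRPM2 had 2.68 and 2.40 FPKM in sh-Ctrl, 7.83 and 7.79 in knockdown, 0.0422 and 0.0799 in the libraries labelled CBAP-reconstituted, and 7.74 and 7.25 in knockout. For ITGA4, with a range of 2.23, they were CERCAM (0.21), MFSD6 (0.22) and the lysophosphatidic acid receptor LPAR5 (0.29). For CCR9, with a range of 2.02, they were the Notch ligand JAG2 (0.26), MRPL44 (0.28) and TMEM151B (0.36). These are descriptions over 8 libraries that share their sets and conditions.

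**Figure D5:**
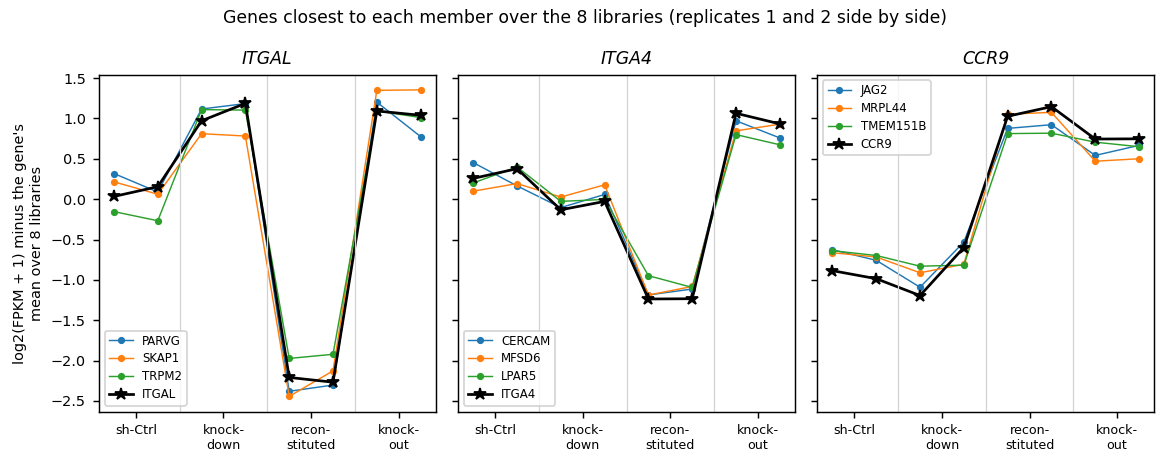
Deviation of log2(FPKM + 1) from each gene's own 8-library mean (vertical axis) for ITGAL, ITGA4 and CCR9 (stars) and the 3 genes closest to each (circles), with the 2 libraries of a condition side by side. The ITGAL group was lowest in the libraries labelled CBAP-reconstituted and highest in knockdown and knockout cells, the ITGA4 group peaked in knockout cells, and the CCR9 group split by set.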

How the data were processed

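RNA from 8 libraries of Jurkat-derived cells, 2 per condition, was analysed. The authors sequenced 100-bp paired-end reads, aligned them to hg19 with TopHat and estimated FPKM with cuffdiff. The labels' processing notes also name CASAVA 1.8, Bowtie and Cufflinks. The authors deposited FPKM per gene and library. The depth is unknown, and a 0 was read only as listed at 0. FPKM is already scaled by the authors, so no count test was possible.

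The 11427 of 13453 genes whose FPKM averaged 1 or more were tested on log2(FPKM + 1), a scale that understates changes of low genes, with limma 3.58.1 (R 4.3.3; eBayes with trend) and p-values adjusted over all of them after Benjamini and Hochberg, at an adjusted p under 0.05. A model with 4 condition means gave the changes and their difference, and another compared pooled deficient with expressing libraries. On simulated data with 200 genes changed by 1.5 on the log2 scale, 89% were recovered for each within-set comparison, and 4.56% of calls were false. In the data, called members of the shRNA set changed by at most 0.98, and 49.9% of genes were called in the CRISPR set. The simulated shares may therefore not carry over to these calls. Labels do not say whether libraries came from separate cultures, so p-values measure a spread that may be technical. Shares were compared by exact permutation. Tables and plots used Python 3.11.15, pandas 2.3.3 and matplotlib 3.10.9.

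Named are all members, TMEM102, and, per list and within-set comparison, up to 3 called genes with the largest changes whose groups do not overlap, plus the closest genes to 3 members. A further gene fixed by this rule is not reported here. CD3D, CD3E, LCK, TRAC, TRBC2, ICAM2, markers low or high in the libraries labelled CBAP-reconstituted and overlapping genes were named after their values were seen. Members and lists were chosen with earlier results of these data known. Coordinates and exons are from GENCODE release 44 lifted to GRCh37. Alternatives covered the pseudocount, filter, scaling, trend, listed zeros, replicate block, set covariate, share denominator and each library left out.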

Additional observations from a re-analysis of the deposited data

Results flagged for a closer look

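For 5 genes the change in CBAP-deficient cells differed between the sets by a test of the difference itself (limma, adjusted p under 0.05). The same held for 33.8% of all genes tested, and the CXCR4 call depended on single libraries, as given above. The knockdown change minus the knockout change, in log2(FPKM + 1), was -2.63 for ITGA4, -2.32 for ITGAL, -1.51 for ITGB2, -1.39 for CXCR4 and -0.72 for ITGB1. The ITGA4 changes had opposite signs and each passed its own test. Both ITGAL changes were increases. The CXCR4, ITGB1 and ITGB2 changes passed in the CRISPR set alone. All 5 differences use the libraries labelled CBAP-reconstituted, in which TMEM102 was listed at 0, and the part of those libraries was not tested. Among 18 groups of 4 libraries, 9 genes in expressing and in deficient cells, 0 held a library far from the other 3, where chance would give about 0.9. Each group joins 2 conditions, which often differed, so a lone library far from the other 3 could hardly appear. The check therefore says little about single libraries.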

How the results depend on the processing

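Pseudocount 0.1, quantile normalization, median-ratio scaling, no filter, no variance trend and leaving out genes with a listed 0 kept the member counts within 1.5 times, apart from CCR7 joining without the filter and ITGB7 losing its CRISPR-set call with quantile normalization (adjusted p = 0.0543). With a library left out, the members called ranged from 1 to 3 in the shRNA set, from 5 to 8 in the CRISPR set, from 4 to 7 for the difference between the sets and stayed at 0 pooled. Where that leaves a condition with 1 library, it is assumed to vary like the others. The set as a covariate gave 2 members pooled. Of the alternatives chosen after seeing the data, each set fitted alone gave 0 of 8 members for the knockdown, where 75 of 11427 genes passed. It gave 8 of 8 members for the knockout, where 7749 of 11427 genes passed. The other alternative, sh-Ctrl as the comparator, gave 4 in the CRISPR set, turned CCR9 to 1.68 and gave 0 pooled. The ITGB1 share difference ranged from -16.6 to -9.15 points with a library left out, ITGB2 from 7.61 to 14.2 and ITGB7 from 1.21 to 2.48, and with all ITGB genes as the denominator they were -12.2, 10.3 and 1.77.

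Labels do not say whether replicate numbers pair the libraries. Over the tested genes, replicate 1 minus replicate 2 correlated at 0.146 within the shRNA set and at 0.0239 within the CRISPR set. Between conditions of different sets the correlations ran from -0.0629 to -0.000961. These values do not settle whether libraries were paired, so a replicate block was also fitted. With the replicate block, 2 members were called in the shRNA set (ITGA4 lost, adjusted p = 0.0549), 6 in the CRISPR set (ITGB7 lost, 0.0606), 5 for the difference and 0 pooled. Over all genes the block gave 776 calls in the shRNA set against 1408, 11 pooled against 71, 5362 against 5697 in the CRISPR set and 3338 against 3861 for the difference. Other settings that moved the count of genes past 1.5 times were no filter (108 pooled), quantile normalization (173 pooled), median-ratio scaling (170 pooled), the set as a covariate (1404 pooled), each set alone (75 in the shRNA set) and sh-Ctrl as the comparator (40 pooled). With a library left out it ranged from 306 to 2376, from 8 to 76 pooled, from 3376 to 6847 in the CRISPR set and from 1849 to 5149 for the difference. The depth behind the FPKM is unknown, so precision rests on 2 libraries per condition.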
